A study of Mus musculus with 21 samples.

Results

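miR-140 and miR-455 are microRNAs of cartilage and connective tissue, and each of their hairpins gives a mature RNA from both arms: miR-140-5p and miR-140-3p, and miR-455-5p and miR-455-3p. These 4 mature microRNAs were followed in left ventricular myocardium of C57BL/6J mice by small RNA sequencing. They were taken from the table by name, as 4 of 1903 named microRNAs, of which 832 had a count in any library and 561 passed the filter on low counts. All 4 members passed it. They were chosen on earlier results of the same libraries, which named miR-140-3p as higher after aortic constriction than after sham surgery. Which values led to the other members is not recorded. Aortic constriction against sham surgery is therefore treated as the contrast that picked all 4: its values are a description, no p-value is printed for them there, and nothing is read from its calls. The drug comparisons come from the same libraries and were also known when the members were chosen.

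The 21 libraries came from 21 mice with separate ear tags. In Sham (5 mice) the surgery was done without constriction. In TAC (5 mice) the transverse aorta was constricted, which loads the left ventricle with pressure. TAC+PDE5A-I (5 mice) had the same constriction and the phosphodiesterase 5A inhibitor sildenafil, and TAC+PDE9A-I (6 mice) had it with the phosphodiesterase 9A inhibitor PF-04449613. Both enzymes break down cyclic GMP. Treatment began 1 week after the operation and lasted 4 weeks. No dose and no vehicle is given in the sources used here, and no sham-operated mouse received a drug. The study's question, as far as its title and labels give it, was how each inhibitor acts on the pressure-loaded heart.

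A microRNA hairpin is cut by Drosha and then by Dicer into a short duplex. One strand of it is loaded into an Argonaute protein as the guide, the other is usually degraded, and both strands are made from the same transcript. The guide finds messenger RNAs mainly through its seed, bases 2 to 8. In chondrocytes both hairpins are transcribed with their host genes under the control of the factor Sox9. Mice without miR-140 have shortened bones and cartilage that degrades early, and the metalloprotease gene Adamts5 is among its known targets. miR-455 is likewise tied to cartilage maintenance and to TGF-beta signalling. In the heart, matrix is made mainly by fibroblasts.

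The sequences are shown for their seeds, which set the targets of a microRNA and which differ among the 3 printed here. They were matched by name to RefSeq (GRCm38.p6) for 3 of the 4 members, and capitals mark the seed.
miR-140-3p: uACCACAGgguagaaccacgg
miR-455-5p: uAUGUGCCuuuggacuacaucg
miR-455-3p: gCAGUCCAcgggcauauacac
miR-140-3p lies at chr8:107551288-107551308, miR-455-5p at chr4:63256867-63256888 and miR-455-3p at chr4:63256904-63256924, all on the plus strand. The GC content was 57.1% for miR-140-3p, 45.5% for miR-455-5p and 57.1% for miR-455-3p. Among 1679 mature names in the RefSeq table, the seed of miR-140-3p was shared only by miR-497b, which had no count in any library. The seed of miR-455-5p was shared only by miR-5129-3p, with at most 24 counts in a library, and that of miR-455-3p by none. miR-140-3p is known to occur also as a form that starts 1 base later and so carries a shifted seed. The table does not separate such forms.

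The miR-140 hairpin is shown whole because it holds both arms that were counted, with miR-140-3p in capitals.
Mir140: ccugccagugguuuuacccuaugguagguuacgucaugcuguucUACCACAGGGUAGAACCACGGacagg
It spans chr8:107551244-107551313. In the GENCODE annotation of GRCm38 it lies in intron 16 of the longest coding transcript of Wwp2, a ubiquitin ligase gene on the same strand (24 exons, chr8:107436365-107558595). It was intronic in 3 Wwp2 transcripts, overlapped an exon of 1 and lay outside the other 7. The miR-455 hairpin, chr4:63256851-63256932, lies in intron 10 of Col27a1, which encodes a fibrillar collagen chain (61 exons, chr4:63214004-63334991, plus strand). It was intronic in 4 Col27a1 transcripts, exonic in 0 and outside the other 3. The build behind the deposited counts is not given in the sources used here, so these positions come from the annotation and not from the count table.

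The libraries were not equally deep. Sham libraries held 3766517 to 7490436 counts and TAC libraries 5373960 to 8497792. TAC+PDE5A-I libraries held only 1205417 to 3969716. The TAC+PDE9A-I group spanned 4785164 to 7532591 apart from its replicate 5, at 1546318. Replicates 3, 4 and 5 of TAC+PDE5A-I and replicate 5 of TAC+PDE9A-I, the 4 libraries under 2000000 counts, also stood apart in base composition. The GC content of the counted microRNAs was 46.0% to 48.6% in TAC+PDE5A-I, 47.2% in TAC+PDE9A-I replicate 5 and between 44.6% and 45.4% in all other libraries. Across 485 microRNAs with a sequence, GC content and the log2 fold change of TAC+PDE5A-I over TAC had a Spearman correlation of 0.69. It was 0.69 between the drugs as well, 0.67 for TAC+PDE5A-I over Sham, 0.35 for TAC+PDE9A-I over TAC, 0.32 for TAC+PDE9A-I over Sham and 0.04 for TAC over Sham. These are descriptions across microRNAs of the same libraries. The part of depth and GC content in any difference that involves a drug group was not tested, so results are given with and without these 4 libraries. The muscle microRNAs that mark cardiomyocytes (miR-499-5p, miR-208a-3p, miR-1a-3p, miR-133a-3p) summed to between 72314 and 268963 CPM in the 21 libraries, with none at 0 throughout. Levels are TMM-scaled CPM, the standard per-library scaling of read counts, and ± is the SD over mice unless SE is named.

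miR-140-3p was the most abundant member and ranked 69 of 561 by its mean level in Sham. Its level in the 5 Sham libraries was 838, 711, 713, 605 and 719 CPM, a mean of 717 ± 82.8. In the 5 TAC libraries it was 1738, 1171, 1683, 1481 and 1556 CPM, a mean of 1526 ± 223. Every TAC library lay above every Sham library. In TAC+PDE5A-I it was 1492, 968, 1780, 2908 and 2114 CPM (1852 ± 725), the widest SD of the 4 groups. In TAC+PDE9A-I (6 mice) it ran from 650 to 1963 CPM with a median of 1426 (mean 1327 ± 491). The order of the means was therefore TAC+PDE5A-I, TAC, TAC+PDE9A-I and Sham, and the 3 groups with constriction overlapped one another.

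miR-140-5p, the other arm of that hairpin, was counted far less often and ranked 183 in Sham. Its level in Sham was 64.2, 51.9, 46.9, 43.2 and 50.1 CPM (51.3 ± 7.96). In TAC it was 92.3, 69.7, 95.2, 104 and 93.1 CPM (90.9 ± 12.7), again with no overlap with Sham. In TAC+PDE5A-I the 5 libraries held 44.0, 39.4, 10.9, 12.1 and 17.9 CPM (24.9 ± 15.7), and all of them lay below every TAC library. Replicates 1 and 2, the deepest of that group, gave the highest values. In TAC+PDE9A-I the range was 12.5 to 100.9 CPM with a median of 76.7 (69.9 ± 32.8), and the lowest value came from the shallow replicate 5. The order of the means was TAC, TAC+PDE9A-I, Sham and TAC+PDE5A-I. TAC+PDE9A-I overlapped all of the other groups, and TAC+PDE5A-I overlapped Sham through its replicate 1 alone.

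miR-455-5p had the opposite order between Sham and TAC. It ranked 112 in Sham, where the 5 libraries held 253, 118, 116, 362 and 132 CPM (196 ± 109). TAC libraries held 85.6, 87.2, 112, 78.9 and 67.0 CPM (86.2 ± 16.5), all below the lowest Sham library. The gap was narrow, from 112 to 116 CPM, and the high Sham mean came from replicates 1 and 4. TAC+PDE5A-I libraries held 14.97, 12.7, 6.52, 0 and 0 CPM (6.85 ± 6.97), the lowest of the 4 groups in every library. A count of 0 in replicates 4 and 5 allows up to 3 counts, a limit for counting error only. This limit is 2.16 and 2.49 CPM by total count, without the TMM scaling of the other levels. TAC+PDE9A-I ran from 20.0 to 178 CPM with a median of 83.2 (92.7 ± 52.7), the lowest again in replicate 5. Its values overlapped both TAC and Sham.

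miR-455-3p was the scarcest member in Sham, at rank 299. The Sham libraries held 16.1, 12.4, 8.64, 9.18 and 11.0 CPM (11.5 ± 2.99), from 34 to 93 counts. TAC libraries held 45.2, 18.03, 69.6, 108 and 87.7 CPM (65.7 ± 35.3), all above the highest Sham library, with replicate 2 closest to it. TAC+PDE5A-I libraries held 28.4, 21.02, 67.4, 49.9 and 48.5 CPM (43.0 ± 18.5), which lay within the TAC range and above all Sham libraries. Each of these 5 libraries held only 65 to 95 counts. In TAC+PDE9A-I replicate 3 reached 171 CPM and replicate 4 reached 73.7, while the other 4 libraries held 12.3 to 19.0 CPM (median 17.3, mean 51.0 ± 63.2). The SD of that group exceeded its mean, so its mean describes no single mouse.

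**Figure D1:**
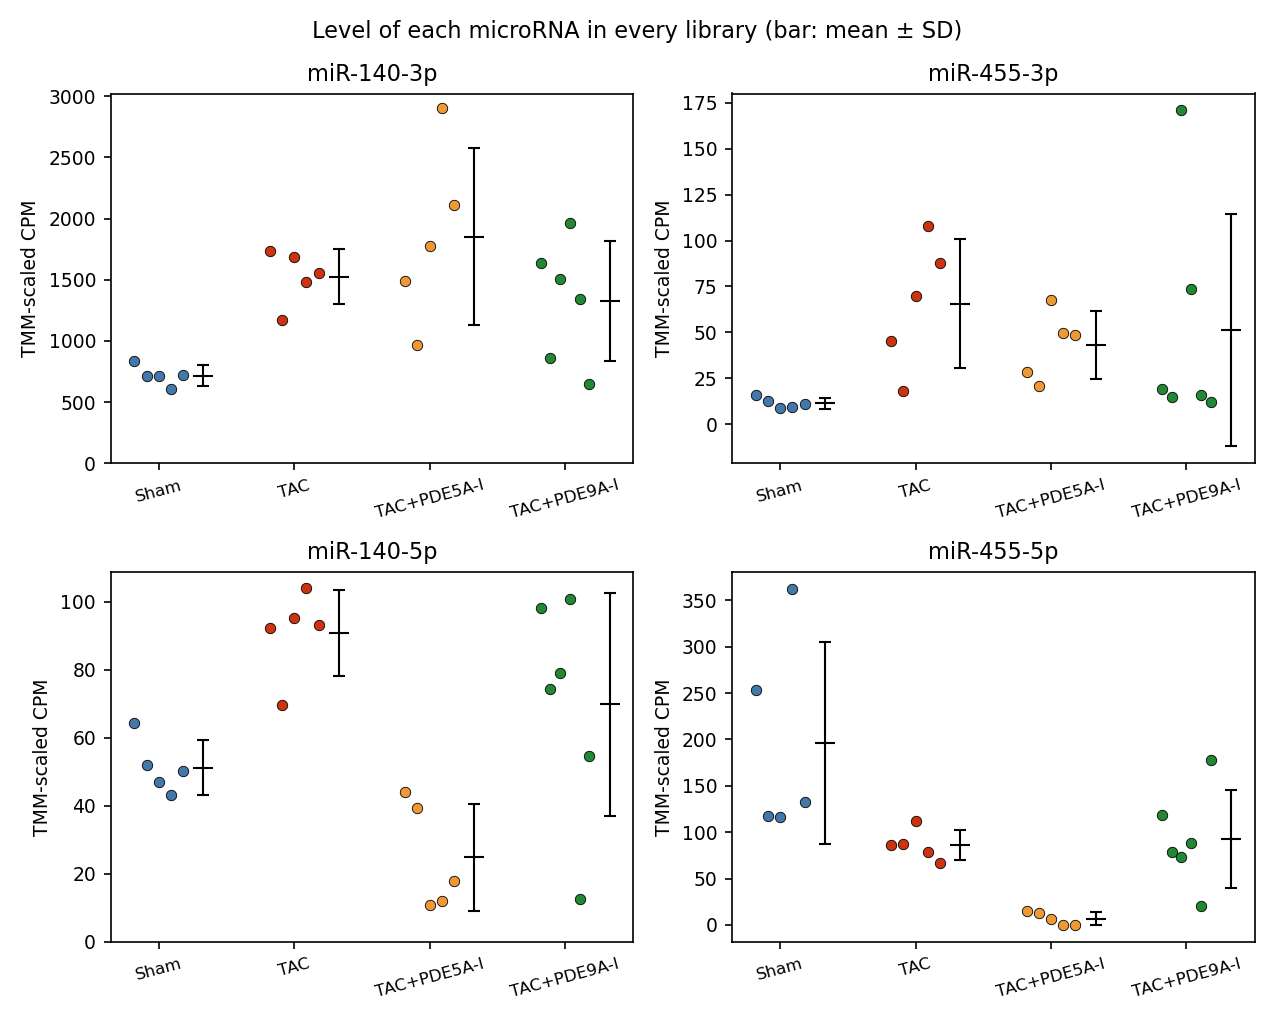
Level of each member in CPM scaled with TMM (y axis) in the 21 libraries, by group (x axis). Points are libraries, bars the mean and whiskers the SD over 5 mice (6 for TAC+PDE9A-I). miR-455-5p falls to between 0 and 14.97 CPM in TAC+PDE5A-I, and miR-455-3p lies between 8.64 and 16.1 CPM in Sham.

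With constriction alone, 3 members were higher and 1 was lower than after sham surgery. As folds of the mean levels, miR-140-3p was 2.13 times, miR-140-5p 1.77 times and miR-455-3p 5.73 times as high in TAC as in Sham, and miR-455-5p was 2.28 times lower. In the model of all 21 libraries (edgeR, robust quasi-likelihood) the log2 fold changes were 1.09 ± 0.28 (SE), 0.83 ± 0.41, 2.51 ± 0.67 and -1.19 ± 0.65 in that order, and the median of all 561 microRNAs was -0.08. Both arms of miR-140 thus lay on the same side of Sham and the arms of miR-455 on opposite sides. TAC replicate 2 had the lowest level of the TAC group for miR-140-3p, miR-140-5p and miR-455-3p alike.

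In this contrast 1 of the 4 members, miR-140-3p, was called at an adjusted p under 0.05, where 2.32% of the 561 were called (2.14% higher and 0.178% lower). The groups did not overlap for 4 of the 4 members, where they did not overlap for 16.9% of the 561 (8.38% higher, 8.56% lower). Nothing is read from either count. Mice of both groups carried ear tags in the 100s and in the 600s. Within the 100s (2 TAC against 3 Sham libraries) the log2 differences were 0.92 for miR-140-3p, 0.57 for miR-140-5p, 1.22 for miR-455-3p and -0.81 for miR-455-5p. Within the 600s (2 against 2) they were 1.20, 1.07, 3.22 and -1.59 in the same order, so all 4 kept their sign.

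The levels of fibroblast microRNAs stand beside those of the members. The 4 listed fibroblast markers (miR-199a-5p, miR-199b-5p, miR-214-3p and miR-214-5p) were all counted, and none was at 0 in any group. Their summed level was 272 to 349 CPM in Sham and 755 to 1399 CPM in TAC, with no overlap. It was 503 to 887 CPM in TAC+PDE5A-I and 362 to 2050 CPM in TAC+PDE9A-I. In TAC+PDE9A-I, replicates 3 and 4, the ones with high miR-455-3p, had the highest sums (1309 and 2050 CPM), and replicates 5 and 6 the lowest (382 and 362 CPM). Replicate 1 had a sum of 1086 CPM with miR-455-3p at 19.0 CPM. Replicate 3 had more miR-455-3p than replicate 4 (171 against 73.7 CPM) with the lower sum. In whole myocardium, fewer cells of a type and less RNA per cell cannot be told apart, and the part of cell composition in the members' differences was not tested.

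The share of each hairpin's counts that came from its 3p arm compares the arms within a library. It is a share of counts and not of molecules, because small RNA ligation and amplification favour some sequences. For miR-140, the 3p arm held 92.9% to 93.8% of counts in the 5 Sham libraries (93.3% ± 0.348). It held 94.4% ± 0.569 in TAC, so miR-140-3p was the major arm in each library with or without constriction. The log2 ratio of 3p to 5p, taken as the difference of their log2 CPM with a prior count of 2, differed between TAC and Sham by 0.26, and those groups overlapped.

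For miR-455 the minor and the major arm came close to changing places. The 3p arm held 5.98%, 9.54%, 6.91%, 2.47% and 7.69% of the hairpin's counts in the 5 Sham libraries (6.52% ± 2.61). In TAC it held 34.5%, 17.1%, 38.3%, 57.8% and 56.7% (40.9% ± 16.9). The lowest TAC share, in replicate 2, had an exact 95% binomial interval of 14.6% to 20.0%, and the highest Sham share, in replicate 2, one of 7.45% to 12.0%, intervals that cover counting error within those libraries and not the spread between mice. In TAC replicates 4 and 5 the 3p arm was in the majority. On the log2 scale the ratio was 3.32 higher in TAC, by 2.03 within the ear tags of the 100s and by 4.81 within the 600s. This contrast too is a description, with no test.

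**Figure D2:**
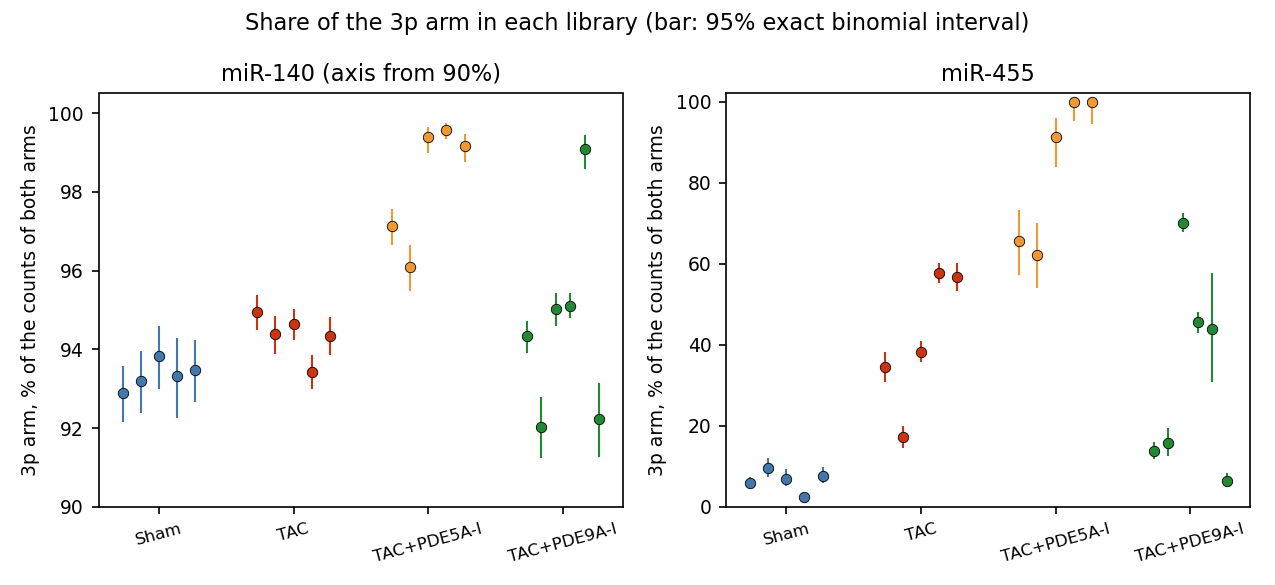
Share of each hairpin's counts from the 3p arm in percent (y axis) in every library, by group (x axis). Points are libraries with exact 95% binomial intervals for counting error. The miR-140 share stays above 92.0% in all libraries, while the miR-455 share runs from 2.47% in a Sham library to 100% in TAC+PDE5A-I replicates 4 and 5.

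With sildenafil added to constriction, the 5p arm of both hairpins was lower and neither 3p arm passed the test with TMM scaling. miR-140-5p fell by 1.85 ± 0.43 on the log2 scale (SE, edgeR adjusted p = 0.00304), 3.66 times lower in mean level than in TAC. miR-455-5p fell by 3.54 ± 0.73 (edgeR adjusted p = 0.00183), which was 12.6 times lower in mean level and 11.2 times lower with the libraries at 0 set to their limit of 3 counts. For both, the groups did not overlap. For miR-140-3p the log2 fold change was 0.28 ± 0.28 (edgeR adjusted p = 0.440, 95% interval -0.30 to 0.86), and with upper-quartile scaling it was 0.84 and was called (edgeR adjusted p = 0.0352). miR-455-3p gave -0.62 ± 0.64 (edgeR adjusted p = 0.453, 95% interval -1.95 to 0.71).

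Lower 5p arms were no exception in this comparison. Of all 561 microRNAs, 46.3% were called (21.6% higher and 24.8% lower), with a median log2 fold change of -0.31, and 33.9% had groups that did not overlap (13.2% higher, 20.7% lower). With upper-quartile scaling the calls were 172 higher and 110 lower, where TMM gave 121 and 139, and the median of all was 0.16. The 2 of 4 members called are near the share over all microRNAs. Both falls were smaller without the 4 libraries under 2000000 counts, which leaves 2 TAC+PDE5A-I libraries: miR-140-5p fell by 1.11 (edgeR adjusted p = 0.00435) and miR-455-5p fell by 2.62 (edgeR adjusted p = 0.00159). miR-140-3p changed sign there, to -0.29. With a correction for GC content, which could be made for the 3 members with a sequence, miR-455-5p fell by 2.80 (edgeR adjusted p = 0.00158). This comparison shares the TAC libraries with the contrast that picked the members.

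Markers of several cell types differed in the same comparison. Of the 4 cardiomyocyte markers, miR-499-5p (-2.37), miR-1a-3p (-3.41) and miR-208a-3p (-3.31) were called lower in TAC+PDE5A-I than in TAC and miR-133a-3p (0.82) higher, and their sum was 140623 to 268963 CPM against 77729 to 144054 in TAC. Called lower were also 1 of 2 endothelial markers (sum 999 to 15678 CPM against 25783 to 42974), 3 of 3 erythroid markers (23.1 to 417 against 445 to 1211), 3 of 5 leukocyte markers with 1 higher (2180 to 3150 against 1397 to 2523), 2 of 4 smooth muscle markers with 1 higher (4873 to 43374 against 70386 to 143662) and 2 of 4 fibroblast markers. No tested marker was at 0 throughout a group. Their part in the lower miR-140-5p and miR-455-5p was not tested.

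By ear tag, the TAC+PDE5A-I mice fell into the 500s (replicates 1 and 2) and the 600s (the 3 shallow libraries), so ear tag range and depth cannot be told apart in that group. Within the 500s (2 against 1 TAC library) the log2 differences from TAC were -1.19 for miR-140-5p and -2.98 for miR-455-5p, and within the 600s (3 against 2) they were -2.85 and -6.13. The size of the -6.13 depends on the prior count of 2, which sets the log2 level of replicates 4 and 5 at 0 counts. miR-140-3p was at -0.49 within the 500s and 0.55 within the 600s, and miR-455-3p at -1.49 and -0.83.

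Within the hairpins, the 3p share in TAC+PDE5A-I was 97.1%, 96.1%, 99.4%, 99.6% and 99.2% for miR-140, each above the highest TAC library at 94.96%. The log2 ratio of the miR-140 arms exceeded that of TAC by 2.28 (exact permutation test, two-sided, p = 0.00794; adjusted p = 0.0198 over 10 arm tests). That raw p is the smallest that 5 against 5 libraries can give. For miR-455 the 3p share was 65.5%, 62.3%, 91.2%, 100% and 100%, also above every TAC library. The log2 ratio was 4.36 higher (exact permutation p = 0.00794, adjusted p = 0.0198) and 3.42 higher with the 2 libraries at 0 set to 3 counts. The 3 shallow libraries gave the highest shares for both hairpins. Without the 4 shallow libraries the differences shrank to 0.78 for miR-140 and 1.41 for miR-455, and 2 against 5 libraries cannot give an exact p below 0.0952. After the GC correction of both arms, the miR-455 difference from TAC was 1.96. Within the 500s and the 600s the differences from TAC were 0.70 and 3.40 for miR-140, and 1.49 and 5.31 for miR-455. The 5.31 includes the 2 libraries at 0, so its size depends on the prior count.

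**Figure D3:**
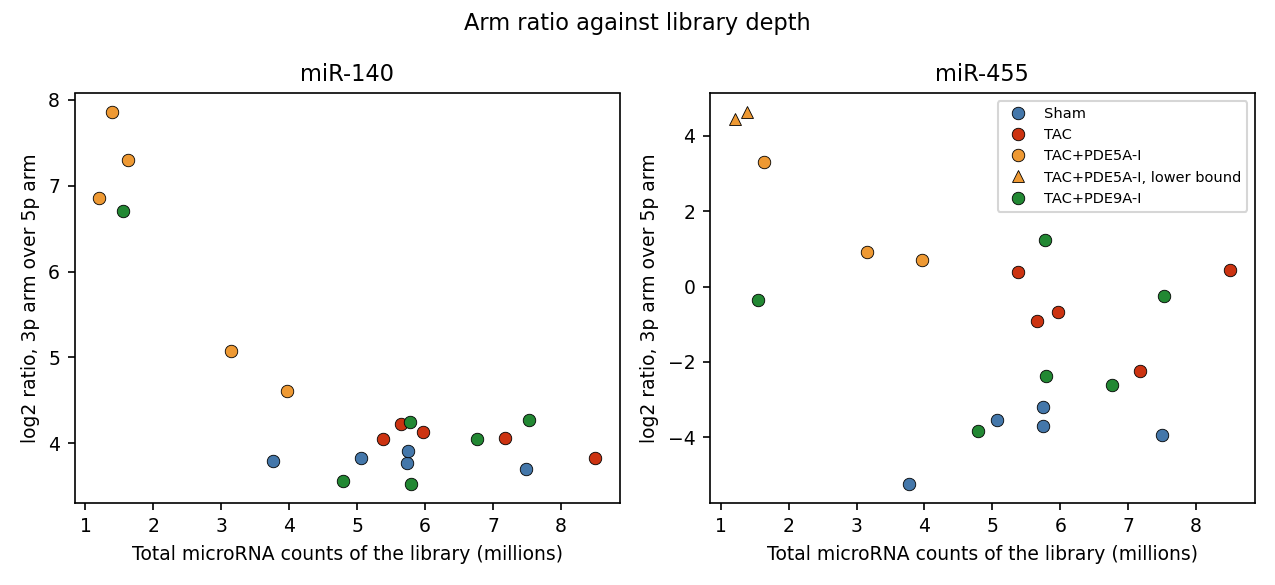
Log2 ratio of 3p to 5p (y axis) against the total count of the library (x axis) for miR-140 and miR-455, colored by group. Each point is 1 of the 21 libraries, and the ratio is the difference of log2 CPM with a prior count of 2. Triangles are TAC+PDE5A-I replicates 4 and 5 for miR-455, which had a 5p count of 0 and are drawn at a lower limit. The 4 libraries under 2000000 counts have the 4 highest miR-140 ratios, from 6.71 to 7.86, and among the other 17 libraries the highest is 5.07.

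TAC+PDE9A-I replicate 5, the shallow and GC-rich library of the PF-04449613 group, had a log2 arm ratio of 6.71 for miR-140. The 3 shallow TAC+PDE5A-I libraries were at 6.85 to 7.86 and the deeper ones, replicates 1 and 2, at 5.07 and 4.61. The highest ratio of the other 15 libraries was 4.28. For miR-455 the 3p share in TAC+PDE9A-I replicate 5 was 43.9%, inside the range of the other libraries of its group. The part of depth in these ratios was not tested.

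With PF-04449613 added to constriction, no member passed the test against TAC. The log2 fold changes were -0.20 ± 0.27 for miR-140-3p (SE, 95% interval -0.76 to 0.36), -0.37 ± 0.39 for miR-140-5p (-1.19 to 0.45), 0.11 ± 0.61 for miR-455-5p (-1.17 to 1.39) and -0.36 ± 0.60 for miR-455-3p (-1.61 to 0.90), each with an edgeR adjusted p of 0.991. Without replicate 3, miR-455-3p was at -1.24 (95% interval -2.31 to -0.17, edgeR adjusted p = 0.991). The data allow changes of either sign up to these bounds, and the interval of miR-140-3p was the narrowest. Of the members 0 were called, 0 had an unadjusted p under 0.05 and 0 were called by DESeq2. The background was as low: edgeR called 0 of 561 (0%), 16 had an unadjusted p under 0.05 and DESeq2 called 2, and 0% had groups that did not overlap. Within ear tag ranges 1 side always held a single library, and the log2 differences from TAC in the 100s, 500s and 600s were 0.20, -0.31 and -1.22 for miR-140-3p, 0.29, -0.86 and -0.84 for miR-140-5p, 0.46, -0.99 and 1.29 for miR-455-5p, and -0.58, -0.74 and -2.95 for miR-455-3p.

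Neither arm ratio passed the test for PF-04449613. For miR-140 the 3p share ran from 92.0% to 99.1% with a median of 94.7%, and the log2 ratio differed from TAC by 0.33 (exact permutation p = 0.844, adjusted p = 0.844). Without replicate 5 that difference was -0.13. For miR-455 the share was 13.8%, 15.8%, 70.2%, 45.5%, 43.9% and 6.44% in the 6 libraries, which covers nearly the full span from Sham to the top of TAC and beyond. The log2 ratio differed from TAC by -0.76 (exact permutation p = 0.437, adjusted p = 0.486). Replicates 3 and 4 had the highest 3p shares and replicate 6 the lowest.

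The drugs were compared directly at the same time point, in libraries that were not part of the TAC against Sham contrast. Since both drug groups would be set against the same TAC libraries, this is also the difference of the drug effects. miR-140-5p was lower with sildenafil than with PF-04449613 by 1.47 on the log2 scale (-1.47 ± 0.41, edgeR adjusted p = 0.0139), 2.81 times lower in mean level. miR-455-5p gave -3.65 ± 0.72 (edgeR adjusted p = 0.00299), 13.5 times lower in mean level and 12.0 times with the libraries at 0 set to their limit. The groups did not overlap for miR-455-5p, and overlapped for miR-140-5p because of TAC+PDE9A-I replicate 5. For the 3p arms the log2 difference was 0.48 ± 0.27 for miR-140-3p (edgeR adjusted p = 0.158, 95% interval -0.08 to 1.04) and -0.26 ± 0.61 for miR-455-3p (edgeR adjusted p = 0.769, 95% interval -1.54 to 1.02). With upper-quartile scaling miR-140-3p was called higher with sildenafil (0.93, edgeR adjusted p = 0.0229) and miR-455-3p was at 0.25, and without TAC+PDE9A-I replicate 3 miR-455-3p was at 0.50.

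Of all 561 microRNAs, 34.8% were called between the drugs (15.2% higher and 19.6% lower with sildenafil), against 2 of the 4 members. The split of 85 higher and 110 lower was 138 and 90 with upper-quartile scaling and 50 and 126 with RLE scaling. Groups that did not overlap were rarer, at 1.96% of the 561 (1.25% higher, 0.713% lower), and miR-455-5p was the member among them. In a fit of the drug groups alone neither member was called (edgeR adjusted p = 0.105 for miR-140-5p and 0.0757 for miR-455-5p), beside 0 over all. Without TAC+PDE5A-I replicate 3, miR-140-5p missed the threshold (edgeR adjusted p = 0.0518), beside 72 called over all. Without the 4 shallow libraries both were called (miR-140-5p -0.98 and miR-455-5p -2.96), beside 104 of 660 over all. The log2 arm ratio was 1.94 higher with sildenafil for miR-140 (exact permutation p = 0.0346, adjusted p = 0.0495) and 5.12 higher for miR-455 (exact permutation p = 0.0130, adjusted p = 0.0260, 4.20 with libraries at 0 set to 3 counts). The miR-140 difference passed in only 3 of the 11 tests that left out a single library, and that of miR-455 in 11 of 11. Within the ear tags of the 500s (2 against 4 libraries) the log2 differences between the drugs were -0.33 for miR-140-5p, -1.998 for miR-455-5p, 0.15 for the miR-140 arm ratio and 1.25 for that of miR-455. Within the 600s (3 shallow libraries against 1) they were -2.005, -7.42, 3.78 and 9.54. The -7.42 and 9.54 include the libraries at 0 counts of miR-455-5p, so their size depends on the prior count.

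**Figure D4:**
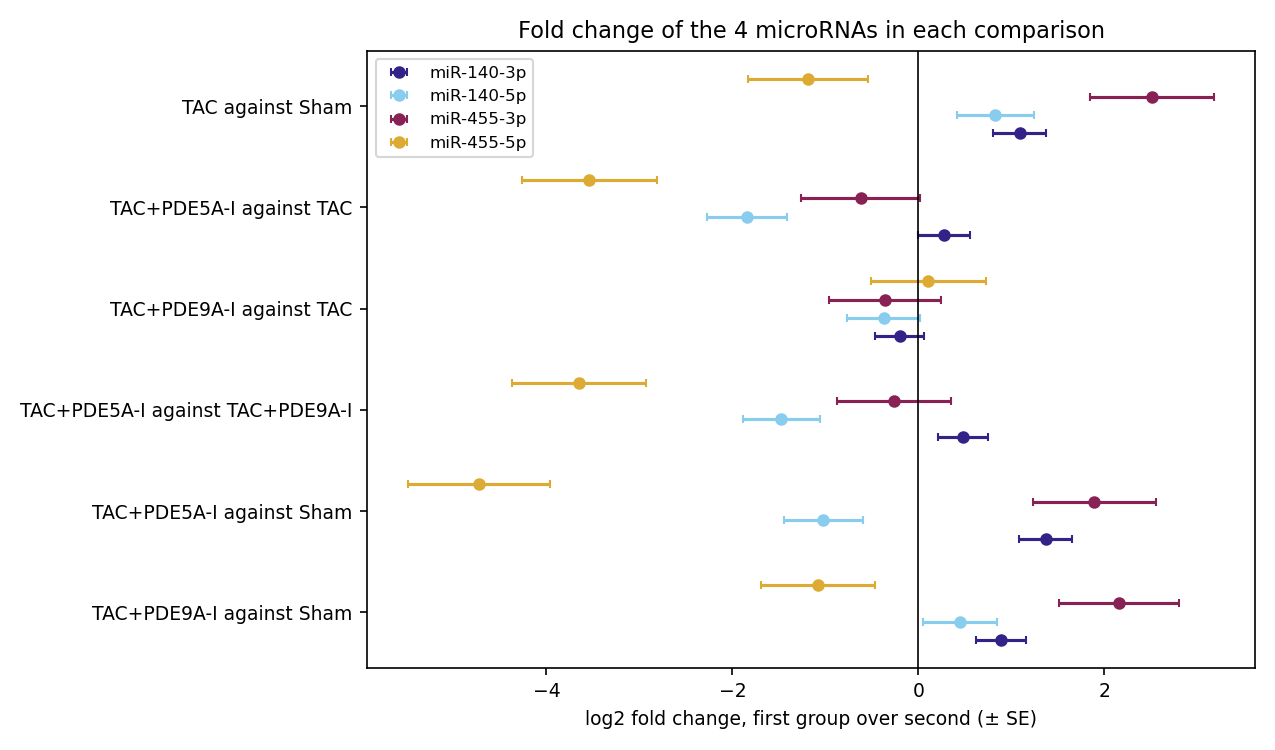
Log2 fold change of each member (x axis) in the 6 comparisons, from the model of all 21 libraries. Points are estimates and whiskers the SE, and the TAC against Sham values are a description. The 95% intervals, which are not drawn, lie below 0 for miR-140-5p and miR-455-5p in TAC+PDE5A-I against TAC and against TAC+PDE9A-I. For TAC+PDE9A-I against TAC the 95% intervals of all members span 0.

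Against Sham, the sildenafil group differed in both directions. miR-140-3p was higher by 1.37 ± 0.28 on the log2 scale (SE, edgeR adjusted p = 0.00123), 2.58 times in mean level. miR-455-3p was higher by 1.89 ± 0.66 (edgeR adjusted p = 0.0278), 3.75 times. miR-455-5p was lower, at -4.73 ± 0.76 (edgeR adjusted p = 0.000197), which was 28.7 times in mean level or 25.5 times at the limit. These 3 members had groups that did not overlap. miR-140-5p gave -1.02 ± 0.42 (edgeR adjusted p = 0.0582). It was called lower with RLE scaling (-1.16, edgeR adjusted p = 0.0421), with DESeq2 (-1.16, DESeq2 adjusted p = 0.0215), in a fit of these groups alone (-1.13, edgeR adjusted p = 0.0481) and with the replicate block (-1.13, edgeR adjusted p = 0.0499). It was not called with total-count scaling (-0.77, edgeR adjusted p = 0.173), upper-quartile scaling (-0.58, edgeR adjusted p = 0.176), no filter (-1.02, edgeR adjusted p = 0.100) or ear tag range in the model (-1.19, edgeR adjusted p = 0.0609).

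The 3 of 4 members called stand beside 42.6% of all 561 (19.1% higher, 23.5% lower, or 164 higher and 111 lower with upper-quartile scaling in place of 107 and 132), and the 3 of 4 without overlap beside 32.8% (11.2% higher, 21.6% lower). Without the 4 shallow libraries only miR-455-5p was called, while miR-140-3p was at 0.78 (edgeR adjusted p = 0.0994) and miR-455-3p at 1.102 (edgeR adjusted p = 0.395). The call of miR-455-3p was also lost in 6 of 10 fits that left out a library, with ear tag range in the model (1.28, edgeR adjusted p = 0.224) and with the GC correction (1.60, edgeR adjusted p = 0.0504). The log2 arm ratio was 2.54 higher than in Sham for miR-140 and 7.68 higher for miR-455 (exact permutation p = 0.00794 and adjusted p = 0.0198 for each), and 6.79 higher for miR-455 with the libraries at 0 set to 3 counts. Within the 600s (3 against 2 libraries) the log2 differences were 1.75 for miR-140-3p, -1.77 for miR-140-5p, -7.72 for miR-455-5p and 2.39 for miR-455-3p, and the arm ratios differed by 3.52 and 10.1. The -7.72 and 10.1 include the libraries at 0, so their size depends on the prior count.

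Against Sham, the PF-04449613 group had no member called by edgeR over all libraries. The log2 fold changes were 0.89 ± 0.27 for miR-140-3p (edgeR adjusted p = 0.0976), 2.16 ± 0.65 for miR-455-3p (edgeR adjusted p = 0.0976), 0.45 ± 0.40 for miR-140-5p (edgeR adjusted p = 0.902) and -1.08 ± 0.61 for miR-455-5p (edgeR adjusted p = 0.627). Of these, 2 had an unadjusted p under 0.05 and DESeq2 called 2, where the same counts over all 561 were 63 and 35. Among all 561, edgeR called 1.96% (1.25% higher and 0.713% lower, a split of 7 and 4 that was 26 and 4 with total-count scaling), and 3.92% had groups that did not overlap (1.25% higher, 2.67% lower), with no member among them. Leaving out replicate 2 or replicate 6, which had low miR-140-3p, brought miR-140-3p and miR-455-3p under the threshold, and leaving out replicate 5 brought miR-455-3p there. Without replicate 3, miR-455-3p was at 1.37 (edgeR adjusted p = 0.284). The log2 arm ratio of miR-455 was 2.56 higher than in Sham (exact permutation p = 0.0173, adjusted p = 0.0289), a call lost in 6 of the 11 tests without a single library, and that of miR-140 differed by 0.59 (exact permutation p = 0.238, adjusted p = 0.298). Within the 100s (1 against 3 libraries) and the 600s (1 against 2) the log2 differences were 1.12 and -0.02 for miR-140-3p, 0.86 and 0.23 for miR-140-5p, -0.35 and -0.30 for miR-455-5p, 0.65 and 0.27 for miR-455-3p, and 0.99 and 0.57 for the miR-455 arm ratio. Both comparisons against Sham share its libraries with the contrast that picked the members.

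The list of other stromal and matrix microRNAs is given beside the members, with counts to be read against the shares of all 561 printed above for each comparison. It held the miR-199 and miR-214 group of stromal cells, miR-21, the miR-29 family that targets collagen messages, miR-143 and miR-145 of smooth muscle, and miR-675 from the H19 transcript. Of its 15 microRNAs 13 were tested. In TAC against Sham 3 were called higher and 0 lower, with a median log2 fold change of 1.21, and miR-214-5p (1.75 ± 0.36, edgeR adjusted p = 0.0122) and miR-199a-5p (1.94 ± 0.44, edgeR adjusted p = 0.0227) had the smallest p. In TAC+PDE5A-I against TAC 1 was higher and 9 were lower, with a median of -2.05, and miR-29b-3p fell by 2.57 ± 0.46 (edgeR adjusted p = 0.000882) and miR-21a-5p by 4.12 ± 0.80 (edgeR adjusted p = 0.00130).

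With PF-04449613, 0 of the 13 were called against TAC (median -0.19), as were 0 of the 4 members. Between the drugs 0 were higher and 9 lower with sildenafil (median -1.88). Against Sham, TAC+PDE5A-I had 3 higher and 6 lower (median -0.85). Among them were miR-214-3p at 2.69 ± 0.43 (edgeR adjusted p = 0.000178) and miR-29b-3p at -2.83 ± 0.47 (edgeR adjusted p = 0.000233). TAC+PDE9A-I had 3 higher and 0 lower against Sham (median 0.64), with miR-214-3p at 1.91 ± 0.41 (edgeR adjusted p = 0.0118).

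The microRNAs most like each member were those whose log2 CPM, centred on its own mean, had the smallest root-mean-square difference from the member's over the 21 libraries, among 302 with a mean of at least 10 CPM. This measure grows with the member's own spread, whose SD was 0.64 for miR-140-3p, 1.04 for miR-140-5p, 2.65 for miR-455-5p and 1.28 for miR-455-3p. For miR-140-3p these were miR-127-3p (0.27), miR-574-3p (0.34) and miR-298-5p (0.34). For miR-140-5p they were miR-434-5p (0.35), miR-199b-5p (0.40) and miR-27b-3p (0.42). For miR-455-3p they were miR-214-5p (0.78), miR-214-3p (0.79) and miR-298-5p (0.85), and miR-140-3p came at rank 5. For miR-455-5p, with the widest spread, they were miR-676-5p (1.01), miR-145a-3p (1.03) and miR-208a-3p (1.05).

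The arms of 1 hairpin were not among each other's nearest by this measure. miR-140-5p came at rank 202 of 302 for miR-140-3p, with a difference of 1.29, and miR-455-3p at rank 281 for miR-455-5p, with a difference of 3.21. Over the 16 libraries outside TAC+PDE5A-I, the miR-140 arms were closer, with a difference of 0.71 and a rank of 129, while miR-455-3p remained at rank 291 for miR-455-5p with 1.86. The 3 nearest shared 1 name with those over all 21 libraries for miR-140-3p, miR-140-5p and miR-455-3p, and 0 for miR-455-5p. Most of the neighbours changed when the sildenafil libraries were left out.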

How the data were processed

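The authors deposited raw read counts per mature microRNA, which were used as deposited. Per the submitters' processing notes, the tools were Bowtie 1.1.1, cutadapt 1.8, DESeq 1.26.0 and CASAVA 1.8.4. Tool roles, build and annotation were not given in the sources used here. The table's 25958 lines comprise 24055 blank and 1903 named ones, and no value above 0 is below 2. Total RNA from frozen ventricle was made into Illumina TruSeq small RNA libraries, per the labels' protocols, a kit without molecular identifiers.

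In R 4.3.3, 561 microRNAs passed filterByExpr in edgeR 4.0.16. TMM scaling was followed by a robust quasi-likelihood fit over the 21 libraries of all 4 groups. P-values were adjusted with Benjamini-Hochberg over the 561, and called means an adjusted p under 0.05. For log2 CPM the prior count was 2. With 1 library per mouse, p-values set the group differences against the spread between these mice. In edgeR that spread was estimated over all 4 groups together, which differ in depth and GC content. Arm ratios (differences of log2 CPM) were tested by exact permutation, two-sided (scipy 1.17.1), adjusted over 10 tests: 2 hairpins in the 5 comparisons other than TAC against Sham.

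The members, lists and tests were chosen with earlier results of these data known. The microRNAs named are the 4 members, the 3 nearest to each, the cell type markers, and examples from the 2 with the smallest p of the stromal list in each comparison. DESeq2 1.42.0, other scalings, no filter, a replicate block, the ear tag range, a GC correction and leaving out libraries were tried as alternatives.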

Additional observations from a re-analysis of the deposited data

Results flagged for a closer look

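The log2 arm ratio of miR-140 in TAC+PDE9A-I replicate 5 was 6.71, far from the 3.52 to 4.28 of the other 5 libraries of that group. It was the only gap of its size among 24 sets of libraries (4 members and 2 arm ratios in 4 groups), of which about 1 in 20 would be marked by chance. That library held 1546318 counts, with 20 of miR-140-5p and 2155 of miR-140-3p.

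The effects of sildenafil and of PF-04449613 against the shared TAC libraries differed for miR-140-5p by -1.47 and for miR-455-5p by -3.65 on the log2 scale in edgeR's test of the difference. The exact permutation tests of the arm ratios also passed, with a difference of 1.94 for miR-140 and of 5.12 for miR-455. The 3 shallow libraries of TAC+PDE5A-I gave the highest arm ratios of their group for both hairpins, and the part of depth and GC content in these differences was not tested.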

How the results depend on the processing

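TAC against Sham is treated as the contrast that picked the members, so nothing is read from the counts of members called there. Of the 4 members, those called in TAC against Sham numbered 2 with RLE scaling, total-count scaling, no filter and DESeq2. Over all microRNAs, these fits called 19 of 561, 17 of 561, 20 of 832 and 54 of 561, where the main fit called 13 of 561. The GC correction (3 members with a value) also gave 2, without and with the replicate block (22 and 23 of 485 over all). In a fit of the 2 groups only 4 members were called, and 98 of 507 over all. Without the 4 libraries under 2000000 counts it was 4, and 75 of 660 over all (this last set of alternatives was chosen after seeing the data). With the ear tag range it was 0 (4 of 561 over all), and 0 to 2 when single libraries were left out (3 to 15 over all). In TAC+PDE5A-I against TAC the number of members called was 3 under upper-quartile scaling (282 of 561 over all). The GC correction, where miR-140-5p has no value, gave 1 with or without the replicate block (136 and 150 of 485 over all). Between the drugs it was 3 with upper-quartile scaling (228 of 561 over all) and 0 in the fit of the 2 groups (also 0 over all). It was 1 with the GC correction, with or without the replicate block (43 and 67 of 485 over all). Without single libraries it was 1 to 2 (72 to 252 over all). In TAC+PDE5A-I against Sham it was 4 with RLE scaling, DESeq2, the fit of the 2 groups and the replicate block. Over all microRNAs these called 227 of 561, 264 of 561, 181 of 446 and 235 of 561. It was 2 with the ear tag range (207 of 561 over all) and with the GC correction, blocked or not (150 and 163 of 485 over all). Without the 4 libraries it was 1 (120 of 660 over all), and without single ones 2 to 4 (173 to 256 over all). In TAC+PDE9A-I against Sham it was 2 with total-count scaling, DESeq2 and without the 4 libraries (30 of 561, 35 of 561 and 37 of 660 over all). It was 1 with the replicate block, with or without the GC correction (13 of 485 and 16 of 561 over all). Without single libraries it was 0 to 2 (7 to 31 over all). Without the 4 libraries, which leaves 2 of TAC+PDE5A-I, miR-140-3p was at -0.29 against TAC and -0.12 against TAC+PDE9A-I, and the miR-140 arm ratio of TAC+PDE9A-I against TAC at -0.13. There the arm tests lost their calls: miR-140 was at 0.78 against TAC, 0.91 between the drugs and 1.04 against Sham, and miR-455 at 1.41, 2.38 and 4.73, and at 2.35 for TAC+PDE9A-I against Sham. The GC correction of both arms gave miR-455 differences of 1.96, 2.60 and 5.65 in that order. miR-455-5p in TAC+PDE9A-I against TAC was at -0.41 with the replicate block and -0.11 with the GC correction as well, and miR-455-3p between the drugs at 0.25 with upper-quartile scaling. Leaving out single libraries gave ranges of -0.22 to 0.33 for miR-140-3p in TAC+PDE5A-I against TAC, -0.18 to 0.31 for miR-455-5p in TAC+PDE9A-I against TAC -0.75 to 0.50 for miR-455-3p between the drugs, and for it -1.24 to -0.11 in TAC+PDE9A-I against TAC and 1.37 to 2.51 against Sham. Arm ratios ranged from 1.56 to 2.41 for miR-140 between the drugs, 2.04 to 3.05 for miR-455 in TAC+PDE9A-I against Sham and -0.13 to 0.51 for miR-140 in TAC+PDE9A-I against TAC. The causes were not tested. The median of all microRNAs in TAC against Sham moved from -0.08 to 0.09 with total-count scaling, and in TAC+PDE5A-I against TAC from -0.31 to 0.16 with upper-quartile scaling. Over all microRNAs that each fit tested, single libraries left out included, calls ranged from 3 to 98 in TAC against Sham, 122 to 292 in TAC+PDE5A-I against TAC, 0 to 2 in TAC+PDE9A-I against TAC, 0 to 252 between the drugs, 120 to 275 in TAC+PDE5A-I against Sham and 1 to 37 in TAC+PDE9A-I against Sham. Same-numbered libraries did not deviate together (correlations from -0.21 to 0.35, best with the own number for 0 to 3 of the 10 or 11 libraries), so numbers were not taken as pairs. The 4 libraries under 2000000 counts held 0 to 32 counts of the 5p arm of miR-455, and the part of depth in this was not tested.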
